A study of Mus musculus with 8 samples.

Results

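CHD4 occupancy in mouse atria was examined at 65 axon guidance ligand and receptor genes, out of 20665 autosomal protein-coding genes. The rule goes by symbol alone and uses no measured value, though it was set with earlier results of these data known. It takes the semaphorins (Sema), plexins (Plxn), slits (Slit), Robo receptors, ephrins (Efna, Efnb), Eph receptors (Epha, Ephb), netrins (Ntn) and Unc5 receptors. It also took Unc50 and Unc5cl, which are not netrin receptors, and leaving them out gave the same picture (control-only share 26.1% against 26.0% with them). A site is an interval made by merging overlapping peaks of the 4 deposited ChIP-seq lists, and it belongs to a gene where it touches the gene body or the 10 kb on either side. The 65 genes held 848 of 121267 sites, and 63 of them had at least 1 site. Epha8 and Epha10 had none in any library.

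Semaphorins are ligands of plexins, which many secreted semaphorins reach through neuropilin co-receptors. Slits are secreted ligands of Robo receptors, netrins of DCC and Unc5 receptors, and ephrins are membrane-bound ligands of the Eph receptor tyrosine kinases. These systems steer growing axons by attraction and repulsion, and in the heart they are also known for vessel patterning, for valve and septum formation and for the placement of autonomic nerves. CHD4 is the ATP-dependent remodeller of the NuRD chromatin complex, and the T-box factor TBX5 regulates genes of atrial cardiomyocytes.

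All mice carried floxed Tbx5 alleles (TBX5flox/flox) and received an AAV9 vector at postnatal day 2. Control mice received AAV9:Nppa-EGFP and TBX5 KO mice AAV9:Nppa-Cre, in which Nppa sequence, active in atrial cardiomyocytes, drives a fluorescent protein or the recombinase. CHD4 was immunoprecipitated from frozen right and left atria, so the chromatin came from mixed cells, and other atrial cells keep Tbx5 where the vector is not active. Peak lists of 2 control and 2 TBX5 KO libraries were analysed. The sources used here state neither the age at collection nor the number of animals per library, so the spread between libraries may be technical. Groups follow the titles. Genotype and treatment labels assign these libraries the other way round, and a protocol line gives CHD4 as the deleted gene, so each direction below rests on the titles. A site that is lost because fewer cells hold CHD4 there cannot be told apart from one with less CHD4 per cell.

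The 4 lists held 99924 and 91520 peaks in control and 61173 and 69557 in TBX5 KO. The background pileup, the lowest local background recovered from the peak values of a library, was 10.1 to 10.3 in control and 10.7 to 13.4 in TBX5 KO. Depth per library is not known from the lists, and whether it bears on the numbers of peaks was not tested. CHD4 sites are not a measure of expression, so cell type markers were used only to describe where sites were lost. Of 49 sites called in both control libraries at 7 atrial cardiomyocyte marker genes, 31 were called in neither TBX5 KO library (63.3%). Over all autosomal gene regions the share was 24.2%. Of the atrial genes, Bmp10 and Kcnj3 had 9 each, Gja5 and Myl4 6 each, Myl7 1, and Nppa and Sln 0. The same counts were 9 of 53 at 6 endothelial genes, 5 of 35 at 6 fibroblast genes, 2 of 15 at 5 smooth muscle genes, 1 of 14 at 8 Schwann and neuronal genes, 7 of 16 at 5 macrophage genes and 0 of 7 at 4 ventricular genes. Whether these differences bear on the axon guidance genes was not tested.

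Both promoter and microRNA sequences help to read the results: promoters of genes at which many sites or none were lost, and microRNAs inside genes that lost sites. The promoters are the 250 bases before the annotated start, from RefSeq on GRCm38.p6 (the assembly behind mm10), written 5′ to 3′ on the gene's strand. In the first set of 3, capitals mark CpG dinucleotides. Slit3 (chr11:35121206-35121455, plus strand, 35 CpG), Epha4 (chr1:77515089-77515338, minus strand, 14 CpG) and Unc5b (chr10:60831582-60831831, minus strand, 27 CpG) each carried a CHD4 peak at this window in all 4 libraries.
Slit3: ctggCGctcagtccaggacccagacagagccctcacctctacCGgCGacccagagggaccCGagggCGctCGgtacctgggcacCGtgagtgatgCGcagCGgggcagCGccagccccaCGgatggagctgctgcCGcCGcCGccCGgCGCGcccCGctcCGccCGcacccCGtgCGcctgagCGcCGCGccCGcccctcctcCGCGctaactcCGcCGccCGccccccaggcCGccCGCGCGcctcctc
Epha4: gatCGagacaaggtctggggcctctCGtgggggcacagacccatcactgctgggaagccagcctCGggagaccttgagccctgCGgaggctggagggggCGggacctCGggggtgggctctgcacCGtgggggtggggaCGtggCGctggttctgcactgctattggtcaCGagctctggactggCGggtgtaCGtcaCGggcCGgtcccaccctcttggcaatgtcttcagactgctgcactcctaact
Unc5b: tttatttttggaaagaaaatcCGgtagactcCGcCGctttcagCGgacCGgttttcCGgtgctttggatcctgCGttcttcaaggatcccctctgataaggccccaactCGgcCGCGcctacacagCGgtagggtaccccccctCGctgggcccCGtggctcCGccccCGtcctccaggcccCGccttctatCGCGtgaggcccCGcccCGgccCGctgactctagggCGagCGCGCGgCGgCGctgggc
The promoter of Sema6d (chr2:124089719-124089968, plus strand, 9 CpG) carried a peak in no library. Its capitals mark the T-box core AGGTGT, which here lies on the opposite strand and so reads ACACCT, with the first letter 238 and 104 bases before the start.
Sema6d: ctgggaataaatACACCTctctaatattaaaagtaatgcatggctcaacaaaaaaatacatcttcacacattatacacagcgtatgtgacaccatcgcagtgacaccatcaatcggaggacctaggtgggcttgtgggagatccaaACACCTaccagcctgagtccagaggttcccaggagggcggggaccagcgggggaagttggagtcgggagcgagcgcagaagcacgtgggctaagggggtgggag

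The second set holds mature microRNAs from RefSeq, with the seed (bases 2 to 8) in capitals. Mir218-2 lies inside Slit3 and Mir218-1 inside Slit2, and both give the same mature miR-218-5p, here at chr11:35616840-35616860 (plus strand). The other arm of the Slit3 copy, miR-218-2-3p, is at chr11:35616882-35616903 (plus strand) and has a seed of its own. Mir6352 lies inside Epha4, with its mature form at chr1:77496731-77496752 (minus strand).
mmu-miR-218-5p: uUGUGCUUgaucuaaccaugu
mmu-miR-218-2-3p: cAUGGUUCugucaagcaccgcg
mmu-miR-6352: uUUGGGAAaaggaccccagcuc

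Fewer sites were called at the axon guidance genes in the TBX5 KO libraries, by about as much as at genes in general. The control libraries had 667 and 580 sites in these regions and the TBX5 KO libraries 380 and 414. Both control values lay above both TBX5 KO values. The means were 623.5 ± 61.5 and 397 ± 24.04 (SD, n = 2), a ratio of 1.57, beside 1.61 over all autosomal gene regions. Peaks covered 713 and 628 kb of the 13.1 Mb in control and 368 and 436 kb in TBX5 KO, a ratio of 1.67. Two-sided exact permutation tests gave p = 0.333 for both measures, the smallest p that 2 libraries against 2 can give. The axon guidance share of all sites in gene regions was 0.900% and 0.881% in control against 0.943% and 0.883% in TBX5 KO, so the groups overlapped on it.

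Site by site, 480 sites at these genes were called in both control libraries. Of these, 275 were called in all 4 libraries, 80 in 1 TBX5 KO library and 125 in neither, which are called control-only below. The control-only share was 26.0% (Wilson 95% interval 22.3% to 30.1%, counting error only), beside 24.2% over all autosomal gene regions. A share this near the background is not a result about the genes as a set. In the other direction, 6 of 298 sites in both TBX5 KO libraries were called in neither control library (2.01%, beside 1.76%). Without control replicate 2 the share of sites lost was 40.8%, beside 40.9% over all gene regions, and in lists cut to equal length it was 17.5%, beside 13.4%.

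The control-only share was highest where the control peaks were weak. Sites were ranked by the mean percentile of their −log10 p in the control lists and split into deciles. In the weakest decile 59.5% of the axon guidance sites were control-only, in the fifth 24.3% and in the strongest 0%. The corresponding shares over all gene regions were 64.8%, 23.1% and 0.15%. In the sixth decile the axon guidance share was 27.7% (Wilson 16.9% to 41.8%), above the 15.3% of all gene regions. In the other 9 deciles the share of all gene regions lay within the Wilson interval of the axon guidance sites. A decile held 30 to 70 of these sites. The shares of all gene regions were applied to each gene's own deciles to give the number of control-only sites expected from rank. That number was 115.5 for the 65 genes together, beside the 125 found.

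**Figure D1:**
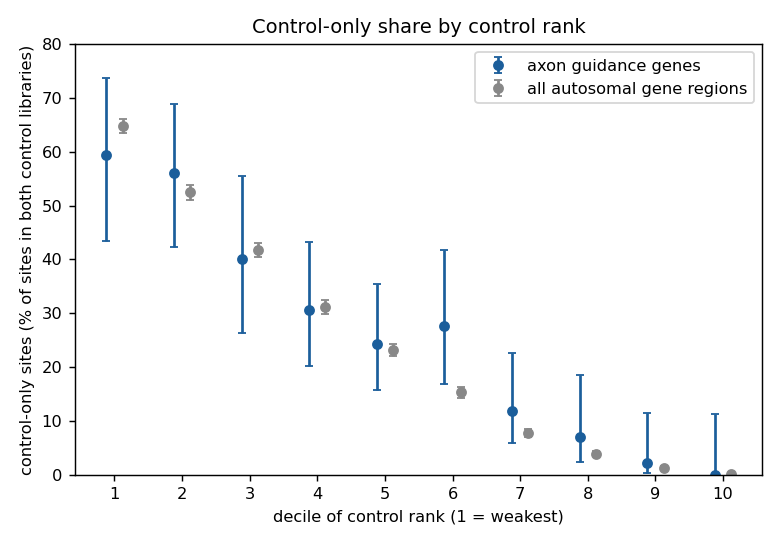
Control-only sites as a percentage of the sites in both control libraries, by decile of control rank (1 = weakest), for axon guidance genes (blue) and all autosomal gene regions (grey). Bars are Wilson 95% intervals of counting error; the blue points run from 59.5% in decile 1 to 0% in decile 10, and in decile 6 the blue point (27.7%) lies furthest above the grey one (15.3%).

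The share also differed with place in the gene. Within 1 kb of a gene end, 2 of 88 axon guidance sites were control-only (2.27%, beside 7.07% over all gene regions). Inside genes the count was 119 of 361 (33.0%, beside 30.9%), and outside them 4 of 31 (12.9%, beside 24.3%). The shares of all gene regions in the same decile and place gave 3.37 expected at gene ends, 108.9 inside genes and 5.83 outside. The gene table used has no exons or introns, so "inside" does not separate them. Across the 60 genes with a site in both control libraries, gene length and the control-only percentage had a Spearman rho of 0.59, and across all 65 genes length and the number of such sites had a rho of 0.10. Many of these percentages rest on 1 or 2 sites.

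The loss was uneven among the genes. Of the 60 genes, 34 had a control-only site (56.7%, beside 45.7% of all genes), and the 5 genes with the most of them, Slit3, Sema6d, Plxna4, Epha4 and Sema6a, held 79 of the 125 (63.2%). At these 5 genes 79 of 169 sites were control-only, against 47.8 expected from rank. At the other 60 genes 46 of 311 were (14.8%), against 67.7 expected. The 5 were singled out after their counts were seen, so this split is a description. Without control replicate 2 more sites count as lost, and Epha4 had 28 of 37, Sema6d 33 of 55, Plxna4 26 of 59 and Sema6a 18 of 29. Without control replicate 1 Epha4 had 23 of 32 and Sema6d 32 of 52. Counting sites per library, 30 of the 63 genes with a site had more in each control library than in either TBX5 KO library (47.6%, beside 42.2% of all genes), 32 overlapped, and 1, Ephb3, had fewer (beside 0.927%). In lists of equal length 15 of 62 genes with a site had more in control (24.2%, beside 14.8% of all genes). These percentages of genes were not matched for sites per gene, and a gene with more sites can more easily hold a control-only one.

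**Figure D2:**
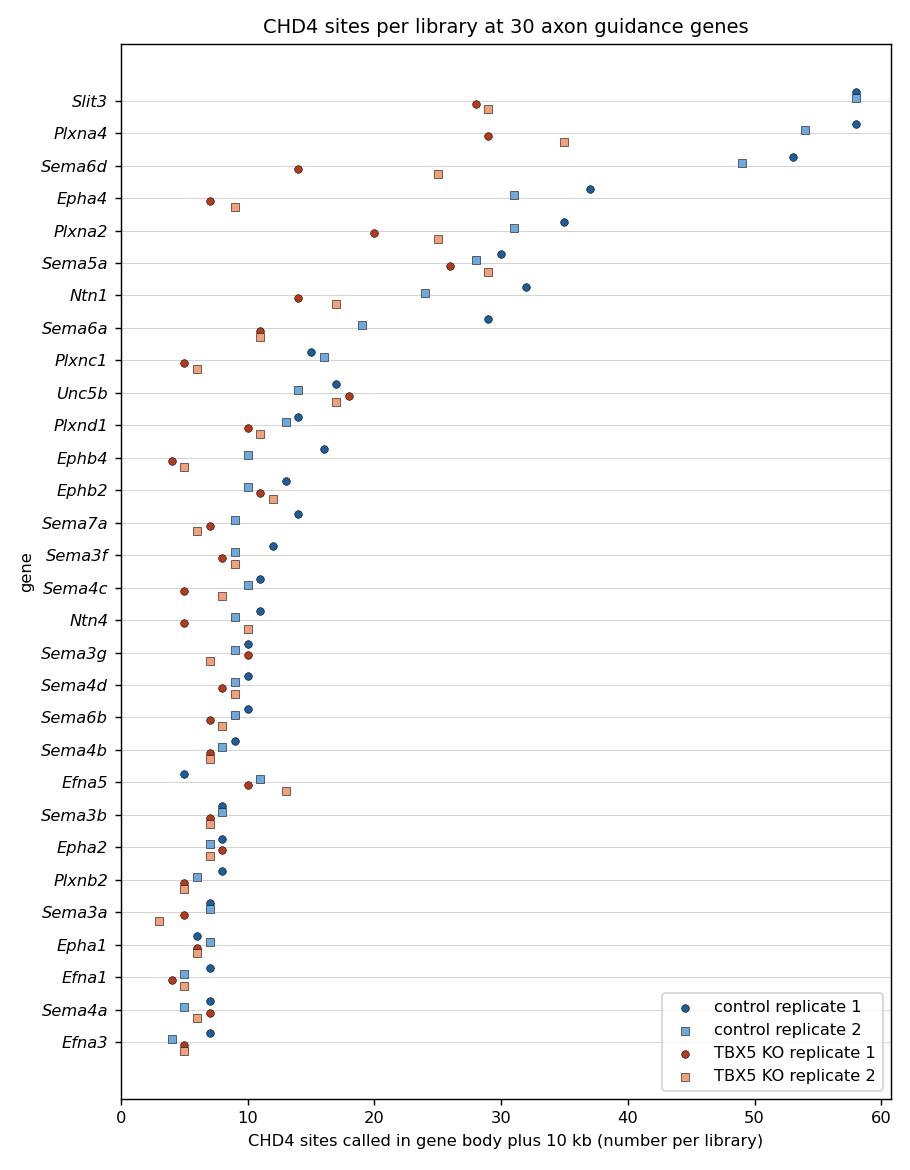
Number of CHD4 sites called per library (horizontal axis) at the 30 genes with the highest control mean (vertical axis); blue symbols are control replicates and red ones TBX5 KO replicates, each on its own line within a row. Slit3 had 58 and 58 sites in control and 28 and 29 in TBX5 KO, while Unc5b had 17 and 14 in control against 18 and 17 in TBX5 KO.

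**Figure D3:**
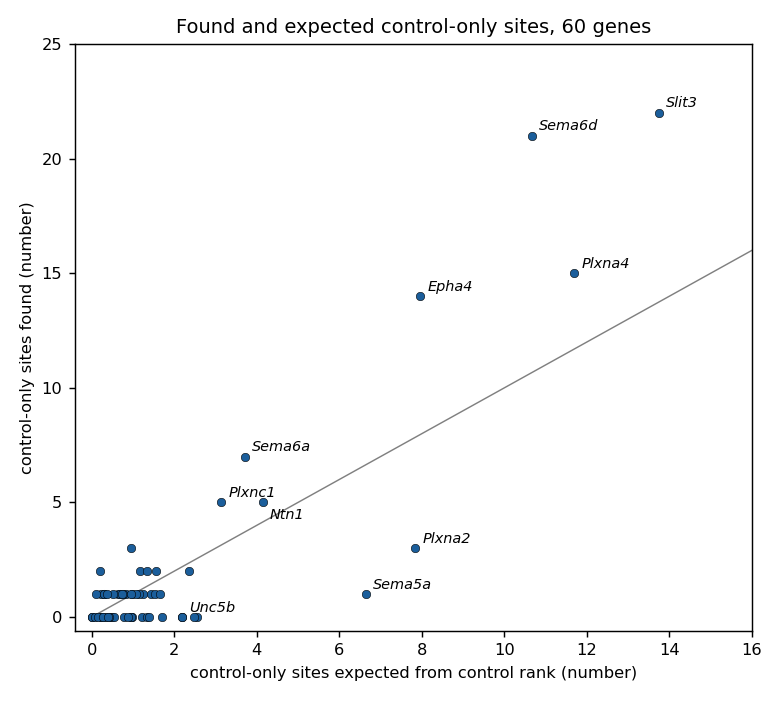
Control-only sites found (vertical axis) against the number expected from control rank (horizontal axis), 1 point for each of 60 genes, from the full lists of all 4 libraries; the line marks equal values. Slit3 (22 found, 13.7 expected), Sema6d (21, 10.7) and Epha4 (14, 7.96) lie above the line, and Plxna2 (3, 7.84) and Sema5a (1, 6.64) below it.

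Among the ligands, the slits lost the largest share of sites, and almost all of it was at 1 gene. Slit3 (chr11:35121456-35708507, plus strand), a secreted Robo ligand with roles in the heart and diaphragm, had 58 and 58 sites in control and 28 and 29 in TBX5 KO. The groups were far apart, and the totals of replicates differed by at most 1 site. The sites themselves differed more, as 47 of the 58 in each control library were called in both. Of its 47 sites in both control libraries, 22 were control-only (46.8%, Wilson 33.3% to 60.8%), against 13.7 expected from rank, and in lists of equal length 11 of 29. Slit1 (3 and 2 sites in control, 0 and 0 in TBX5 KO) and Slit2 (2 and 2, then 1 and 1), the other Robo ligands of the family, had few sites. The 3 slits together had 25 of 51 control-only, against 15.03 expected. Their share was 52.9% to 55.4% when 1 library was left out and 38.7% in lists of equal length, beside 30.2% to 40.9% and 13.4% over all gene regions.

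Within Slit3 some of the lost sites lay in a row. Counting only sites called in both control libraries, 5 in a row were control-only over 20.2 kb at chr11:35257237-35277431. A TBX5 KO-only site, chr11:35262504-35262871, lies inside this stretch. Whether such a row is longer than the share of lost sites in the gene would give was not tested. The strongest control-only site of Slit3, chr11:35401590-35402396, 281 kb from the start, had folds over local background of 3.96 and 4.05 in the authors' control lists. The miR-218-2 hairpin shown above sits near the far end of the gene, and all 4 sites within 15 kb of it that both control libraries called were control-only, the nearest 3741 bp away at chr11:35620666-35621404 (control folds 3.87 and 3.99). At the miR-218-1 hairpin in Slit2 no such site lay within 15 kb. At Mir6352 in Epha4, 8 of 9 sites within 15 kb that both control libraries called were control-only. None of such sites was control-only at Mir6406 in Ntn1 (4 sites), Mir7118 in Plxnb2 (5), Mir7011 in Sema4a (4) or Mir7243 in Ephb1 (1). Mir691 in Robo2 had no such site within 15 kb. Slit3 also had 2 of the 6 TBX5 KO-only sites, chr11:35262504-35262871 (folds 1.97 and 2.50) and chr11:35355714-35356146 (folds 2.82 and 2.17). Its CpG-rich promoter kept its peak in all 4 libraries.

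The 20 semaphorins had 40 control-only sites of 161 (24.8%), against 36.7 expected, and differed widely. Sema6d (chr2:124089943-124667789, plus strand), a membrane semaphorin of cardiac morphogenesis, had 53 and 49 sites in control and 14 and 25 in TBX5 KO. The groups did not overlap, and the TBX5 KO replicates differed from each other by 11 sites. In all, 21 of 38 sites were control-only (55.3%, Wilson 39.7% to 69.9%), against 10.7 expected, and 13 of 25 in lists of equal length. Its site at chr2:124332353-124333968, 243 kb from the start, was the strongest control-only site of any axon guidance gene, with folds of 6.80 and 8.40 and a mean control percentile of 91.3. It lay in a run of 4 control-only sites over 26.2 kb. Sema6a, a membrane ligand of A-type plexins, had 29 and 19 sites in control and 11 and 11 in TBX5 KO, with 7 of 17 control-only against 3.71 expected, and 18 of 29 without control replicate 2.

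Class 3 semaphorins, the secreted ones, had fewer sites than Sema6d or Sema6a. Their differences were smaller in numbers of sites, though not always in control-only shares. Sema3b and Sema3g, named after their values were seen, each had 1 of 8 sites control-only, and Sema3e had 1 site, in TBX5 KO replicate 1. Sema3a, a repellent that shapes the sympathetic innervation of the heart, had 7 and 7 sites in control and 5 and 3 in TBX5 KO, with 2 of 5 control-only. Sema3c, known for its part in outflow tract septation, had 2 and 3, then 1 and 1. Sema3d, known for the patterning of pulmonary veins, had 4 and 4 in control against 4 and 7 in TBX5 KO, with 0 of 2 control-only. Sema3f, a neuropilin-2 ligand, had 12 and 9, then 8 and 9, and 0 of 8 control-only, but 4 of 13 without control replicate 2. The groups overlapped at Sema3d and Sema3f and not at Sema3a and Sema3c. Sema5a, a membrane semaphorin chosen after its values were seen for its length of 452 kb, had 30 and 28 sites in control and 26 and 29 in TBX5 KO, and 1 of 22 control-only against 6.64 expected. Without TBX5 KO replicate 2 it had 6 of 22 (beside 36.7% over all gene regions), and without TBX5 KO replicate 1 3 of 22 (beside 30.2%). Without control replicate 1 it had 5 of 29 (beside 36.9%), and without control replicate 2 3 of 30 (beside 40.9%). Plxna4 spans 444 kb and had 15 of 45, and the difference between these genes was not tested, because sites of 1 gene are not replicates.

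Plexins had 23 of 105 sites control-only (21.9%), against 26.8 expected. Plxna4 (chr6:32144543-32588192), a receptor for class 3 and class 6 semaphorins on sympathetic and sensory axons, had 58 and 54 sites in control and 29 and 35 in TBX5 KO. The groups did not overlap. Its 15 control-only sites of 45 (33.3%, Wilson 21.4% to 47.9%) compare with 11.7 expected, and fell to 5 of 29 in lists of equal length. The strongest, chr6:32214987-32216003, had control folds of 5.17 and 6.81. Plxna2, a Sema6a receptor also known from the neural crest of the outflow tract, had 35 and 31 sites in control and 20 and 25 in TBX5 KO. Of 27 in both control libraries 3 were control-only, against 7.84 expected, and 10 were still called in 1 TBX5 KO library. This shortfall depended on the threshold: Plxna2 had 8 of 19 at −log10 q of at least 5 (beside 27.0% of all gene regions). Leaving out 1 library raised its count, but it stayed below the share of all gene regions each time. Plxna2 had 9 of 27 without TBX5 KO replicate 2 (beside 36.7%) and 7 of 27 without TBX5 KO replicate 1 (beside 30.2%). It had 7 of 32 without control replicate 1 (beside 36.9%) and 7 of 35 without control replicate 2 (beside 40.9%). Plxnc1, the Sema7a receptor, had 15 and 16, then 5 and 6, with 5 of 12 control-only, and 9 of 16 without control replicate 1 or 8 of 16 without control replicate 2. Plxnd1, an endothelial semaphorin receptor, had 14 and 13, then 10 and 11, with 0 of 9, but 4 of 16 without control replicate 1, 5 of 15 without control replicate 2 and 1 of 9 without TBX5 KO replicate 2.

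**Figure D4:**
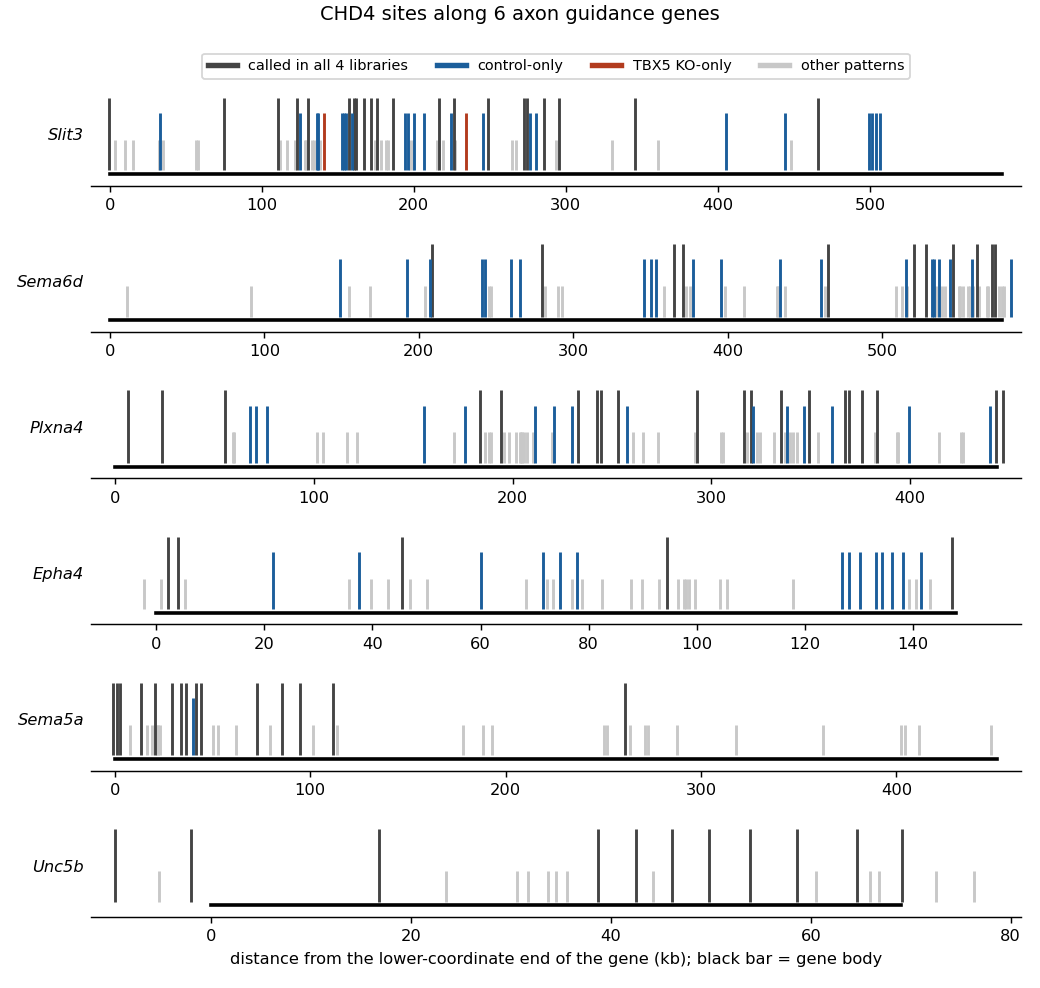
Positions of CHD4 sites along 6 genes, in kb from the lower-coordinate end of each gene (black bar = gene body); tall dark lines are sites called in all 4 libraries, blue lines control-only, red lines TBX5 KO-only and short grey lines other patterns. Slit3, Sema6d, Plxna4 and Epha4 carry 22, 21, 15 and 14 control-only sites, Sema5a 1 and Unc5b 0; Slit3 alone of these 6 has TBX5 KO-only sites, 2 in number.

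Eph receptors had 24 of 69 sites control-only (34.8%), against 16.7 expected, and the A receptors held 21 of these in 47 sites. Epha4 alone held 14 of the 24. The share of the Eph receptors was 28.6% at −log10 q of at least 5 (14 of 49), beside 27.0% over all gene regions. In lists of equal length it was 20.4% (10 of 49, beside 13.4%). Leaving out 1 library gave 37.1% to 55.7%, beside 30.2% to 40.9%. Epha4 (chr1:77367182-77515107, minus strand), which binds ephrins of both the A and B classes, had 37 and 31 sites in control and 7 and 9 in TBX5 KO. Every control value was above every TBX5 KO value. Of 22 sites in both control libraries 14 were control-only (63.6%, Wilson 43.0% to 80.3%), against 7.96 expected. Among the 1406 autosomal genes with at least 10 such sites its control-only share stood at the 96.8 percentile, with Sema6d at 94.5, Slit3 at 88.5 and Plxna4 at 67.9. Under a stricter threshold of −log10 q of at least 5, Epha4 had 5 of 11, and in lists of equal length 4 of 11.

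Epha4 had the most control-only sites in a row of the 65 genes, though not the longest stretch: rows of fewer sites spanned more at Sema6d (26.2 kb), Slit3 (20.2 kb), Sema6a (64.4 kb), Epha3 (144.4 kb) and Epha6 (348.7 kb). In a row of 8 sites, counted among those in both control libraries, each was control-only over 15.4 kb at chr1:77493795-77509164. Their centres lay between 6.36 and 21.1 kb from the start. These were weak in control, and their mean percentiles ran from 17.9 to 49.5. The miR-6352 hairpin shown above lies in the third of them, chr1:77496646-77498122, which had control folds of 2.74 and 3.42. The next site toward the start, chr1:77511692-77517150, spans the promoter and was called in all 4 libraries, with pileups over background of 11.5 and 9.93 in control against 7.77 and 6.19 in TBX5 KO. The promoter thus kept its call while the 8 sites beside it were not called.

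Other Eph receptors and the ephrins had small counts. Epha3, known from the atrioventricular endocardial cushions, had 6 and 5 sites in control and 1 and 2 in TBX5 KO, with 3 of 5 control-only, and 5 of 7 without control replicate 2. Its strongest control-only site, chr16:63816609-63817452, had folds of 4.78 and 4.05. Ephb4, the venous endothelial receptor, had 16 and 10 sites in control and 4 and 5 in TBX5 KO, with 2 of 8 control-only, and its arterial ligand ephrin-B2 (Efnb2) had 7 and 4, then 3 and 4, with 0 of 4. Epha2, the main receptor of ephrin-A1, had 8 and 7 in control against 8 and 7 in TBX5 KO, with 0 of 7 control-only. Efna1 had 7 and 5, then 4 and 5, with 0 of 5, and Ephb2, a receptor of B-class ephrins, had 13 and 10, then 11 and 12, with 0 of 8. These counts are small and moved with single libraries, and leaving out 1 library put the share of all gene regions at 30.2% to 40.9%. Without control replicate 2 the control-only sites were 10 of 16 at Ephb4, 2 of 7 at Efnb2, 2 of 8 at Epha2, 2 of 7 at Efna1 and 3 of 13 at Ephb2. Ephb4 had 5 of 10 without control replicate 1 and 4 of 8 without TBX5 KO replicate 2, and Efnb2 had 2 of 5 without TBX5 KO replicate 2. Leaving out another library gave 0 or 1 at Efnb2, Epha2, Efna1 and Ephb2. The groups overlapped at Efnb2, Epha2, Efna1 and Ephb2. The 7 ephrins together had 2 of 26 control-only, against 5.002 expected. The share of the ephrins was 27.8% without control replicate 1 (10 of 36), beside 36.9% over all gene regions. It was 24.3% without control replicate 2 (9 of 37, beside 40.9%). Without TBX5 KO replicate 2 it was 22.2% (6 of 27, beside 36.7%), and without TBX5 KO replicate 1 7.69% (beside 30.2%).

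Efna5 and Ephb3 were among the genes that went against the general direction. So did Sema3d and, with 17 and 14 sites in control against 18 and 17 in TBX5 KO, Unc5b. Efna5, a membrane-anchored ligand of Eph receptors, had 5 and 11 sites in control and 10 and 13 in TBX5 KO, with 1 of 5 control-only. Ephb3, a B-class receptor, had 2 and 2 in control against 3 and 3 in TBX5 KO. The groups overlapped at Efna5 but not at Ephb3, where the difference was a single site. That site, chr16:21213864-21214866, had folds of 2.01 and 2.71 in the TBX5 KO lists. A TBX5 KO-only site in Efna5, chr17:62656712-62657132, had folds of 2.24 and 2.23. The remaining ones were in Ntn1 at chr11:68308956-68309498 (2.40 and 1.94) and in Ntn4 at chr10:93707291-93707631 (2.40 and 2.36). All 6 were weak, and their number is sensitive to the merging rule, with 32 when summits within 250 bp were joined instead and 11 to 47 when 1 library was left out. The TBX5 KO-only share over all gene regions also moved with the setting, from 1.76% to 5.66% in lists of equal length. The higher counts are thus not read as a result about these genes.

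The 4 netrins, secreted ligands of DCC and Unc5 receptors, had 5 of 36 sites control-only (13.9%), against 7.45 expected, and 12 more were called in 1 TBX5 KO library. Their share was 35.5% at −log10 q of at least 5, beside 27.0% over all gene regions. It was 40.0% without control replicate 2 (beside 40.9%) and 38.9% without TBX5 KO replicate 2 (beside 36.7%). Without control replicate 1 it was 19.5% (beside 36.9%), and without TBX5 KO replicate 1 22.2% (beside 30.2%). Netrin-1 (Ntn1) had 32 and 24 sites in control and 14 and 17 in TBX5 KO, without overlap, and 5 of 21 control-only, against 4.14 expected. Its count was 15 of 32 without control replicate 2, 8 of 25 without control replicate 1 and 9 of 21 without TBX5 KO replicate 2. Its strongest control-only site, chr11:68203729-68204701, also lies in the region of Stx8. Ntn4, a netrin of basement membranes, had 11 and 9, then 5 and 10, with 0 of 9, but 5 of 9 without TBX5 KO replicate 2 and 2 of 12 without control replicate 2. The endothelial netrin receptor Unc5b (chr10:60762594-60831581, minus strand) had 17 and 14 sites in control and 18 and 17 in TBX5 KO. None of its 13 sites in both control libraries was control-only, against 2.19 expected, and 11 were called in all 4 libraries. Leaving out any 1 library gave 1, of 13 to 17 sites. Of the 1406 genes with at least 10 such sites, 82 (5.83%) also had none. Its promoter, printed above, lies in its strongest site, chr10:60830088-60833368, with pileups over background of 20.9 and 16.7 in control against 11.4 and 9.84 in TBX5 KO.

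The 4 Robo receptors differed in size and in sites. Robo1, a Slit receptor, had 6 and 4 sites in control and 5 and 1 in TBX5 KO over 1020 kb, and Robo2 had 2 and 1, then 0 and 2, over 1555 kb. The endothelial Robo4 spans 12.1 kb and had 4 and 5, then 6 and 3, and Robo3, which was named after its values were seen, spans 17.4 kb and had 3 and 4, then 4 and 2. The groups overlapped at each of the 4. Together they had 2 of 9 sites control-only. Without TBX5 KO replicate 1 they had 6 of 9 (beside 30.2% over all gene regions). At −log10 q of at least 5 they had 5 of 8 (beside 27.0%). Over all families, ligands had 72 of 274 control-only (26.3%) and receptors 52 of 201 (25.9%).

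Most promoter windows of axon guidance genes had a CHD4 peak in all 4 libraries. Sequences were found for 56 of the 65 genes, with 72 promoter windows. Of these, 46 (63.9%) overlapped a peak in all 4 libraries, 19 in none and 7 in 1 to 3, while 0 were called in both control libraries and no TBX5 KO library. Over all autosomal genes 53.6% of windows were called in all 4, and 1.18% in both control libraries only, so the 0 of 72 lies near the background and is not a result about these genes. Windows called in all 4 held a median of 18.5 CpG in 250 bases, and those called in none 7, beside 17 and 2 over all genes. The letters AGGTGT, searched on both strands, occurred in 8 of the 72 windows (11.1%), beside 11.2% of all promoters. A match is a description of the letters, as at Sema6d above, and not a binding site.

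At the 275 sites called in all 4 libraries, the height of the peak could be compared as well as the call. The pileup at the summit was recovered from the authors' fold and −log10 p and divided by the library's background, and limma was fitted to the log2 values of 38005 sites genome-wide. The median over the axon guidance sites was 5.73 and 5.16 in control against 3.65 and 3.65 in TBX5 KO. On this scale 199 of the 275 were lower in TBX5 KO at a Benjamini-Hochberg adjusted p under 0.05 (72.4%, beside 77.2% of all sites) and 0 were higher (beside 0.0895%; 0 also at an unadjusted p under 0.05). The median log2 difference, TBX5 KO minus control, was −0.53, beside −0.63 over all sites. These sites were selected by being called in every library, so a weak control site could enter only where its TBX5 KO pileup stayed above the threshold.

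Because most sites were called lower (77.2% of all sites), the libraries were also centred on their median site. This moved the median over all sites from −0.63 to 0.03. On this scale 15 axon guidance sites were lower (5.45%, beside 9.05%) and 36 higher (13.1%, beside 8.96%) than the median site. Leaving out any 1 library gave fewer sites in both directions, so the 15 and 36 depend on all 4 libraries. Such a fit leaves a single library in 1 group, and its counts are not set beside those of all sites. Here "higher" means less reduced than the median site.

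**Figure D5:**
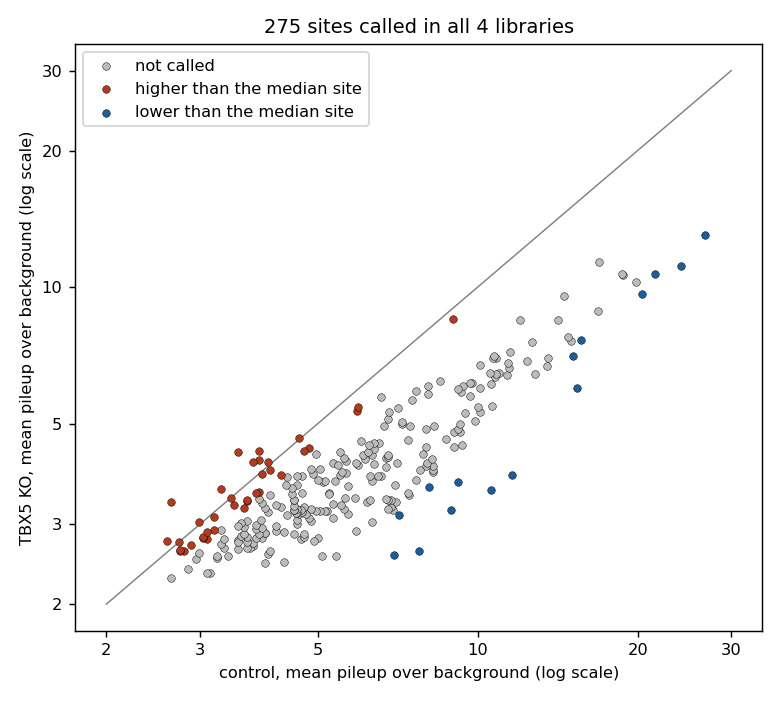
Mean summit pileup over background in TBX5 KO (vertical axis) against control (horizontal axis), both on log scales, for the 275 axon guidance sites called in all 4 libraries; the line marks equal values. Most points lie below the line; red points (36) and blue points (15) were higher and lower than the median site at an adjusted p under 0.05 in the centred limma fit.

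The 2 largest falls were at Epha4 and Slit3, inside the genes. At an Epha4 site 103 kb from the start, chr1:77411821-77413311, the pileup over background was 11.3 and 11.97 in control against 3.84 and 3.88 in TBX5 KO. The log2 difference was −1.59 ± 0.17 (SE) scaled to background and −0.93 ± 0.15 centred (limma adjusted p = 3.4e-05). At the Slit3 site chr11:35243923-35245889, 123 kb from the start, values were 11.2 and 10.03 in control against 3.27 and 3.88 in TBX5 KO, a centred difference of −0.91 ± 0.16 (adjusted p = 8.1e-05). Both remained below an adjusted p of 0.05 in the centred fit without any 1 library, with p no higher than 0.015 and 0.011. At Ntn1 all 10 such sites were lower on the background scale and none on the centred scale.

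The 3 highest centred differences were at Unc5b, Sema3d and Efna5. At the Unc5b site chr10:60800310-60802244, pileups over background were 2.47 and 2.82 in control against 3.65 and 3.06 in TBX5 KO, so both TBX5 KO values lay above both control values. The centred difference was 0.998 ± 0.18 (limma adjusted p = 0.00013), while on the background scale it was 0.34 ± 0.18 (adjusted p = 0.084). A site over the start of Sema3d, chr5:12383079-12384250, had 3.86 and 3.21 in control against 4.77 and 3.88 in TBX5 KO, a centred difference of 0.95 ± 0.18 (adjusted p = 0.00022). At Efna5 all 4 sites were higher than the median site, and its promoter site, chr17:62879759-62884606, had 9.59 and 8.37 in control against 8.05 and 8.95 in TBX5 KO, so the groups overlapped there. Epha2 had 4 of 7 and Sema3f 3 of 7 sites in the higher class.

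A list of 63 other genes of the same pathways had a control-only share near that of genes in general. Of 650 sites in both control libraries at co-receptors, further ligands and cytoplasmic effectors, 158 were control-only (24.3%), against 171.8 expected. Co-receptors and further ligands had 19 of 98, and effectors 139 of 552. The 5 genes with the most were Ablim1, an actin-binding protein of netrin signalling (20 of 65, with 92 and 78 sites in control and 43 and 45 in TBX5 KO), Mical3, of the family of redox enzymes downstream of semaphorins (11 of 44), the tyrosine kinase Fyn (8 of 33), the guanine nucleotide exchange factor Vav3 (7 of 11) and the serine/threonine kinase Rock2 (7 of 12). Without control replicate 1 or 2 these counts rose, to 39 and 50 at Ablim1, 26 and 28 at Mical3 and 16 and 19 at Fyn, and to 12 at Rock2 and 11 at Vav3 at most. Without TBX5 KO replicate 2 Ablim1 had 31 and Fyn 15. Of the 61 list genes with a site, 33 had more sites in each control library than in either TBX5 KO library (54.1%, beside 42.2% of all genes) and 1 had fewer (beside 0.927%). Here too the genes were not matched for sites per gene.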

How the data were processed

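The analysis used CHD4 ChIP-seq peak lists of 4 atrial libraries; lists of the 4 input libraries alone were not used here. The submitters' processing notes name MACS2, DiffBind and mm10, without versions, and the aligner is not given in the sources used here. Per the labels, a deposited list comes from 1 library and gives per peak an interval, a summit, a score, a fold ratio over local background made by the authors, and −log10 p and −log10 q. The lowest deposited −log10 q was 1.30 to 1.31. The deposited score was not used.

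Peaks were merged into sites at 1 bp of overlap and assigned to gene bodies plus 10 kb (RefSeq table, GRCm38.p6). Sites are calls, so an uncalled site may still hold CHD4. The lists give no read totals. Summit pileup was recovered from the authors' fold and −log10 p under a Poisson model, and at least 99.9% of values came out whole within 0.02. Exact permutation tests compared single values. The limma fit (limma 3.58.1, R 4.3.3, Benjamini-Hochberg adjustment over all sites) was added after the data were seen. Python 3.11.15, SciPy 1.17.1 and pandas 2.3.3 were used, and scripts were tested on simulated data. Same-numbered libraries did not deviate together (correlation of calls 0.0069, of pileup −0.015), so they were not paired.

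Members and lists were chosen with earlier results of these data known. Named genes were the 10 with most control-only sites, all with a TBX5 KO-only site, the 5 with most sites in all 4 libraries and no control-only site, genes with known roles in heart, vessels or cardiac nerves, and the 5 pathway genes with most control-only sites. Alternatives were stricter thresholds, lists of equal length, other merging and gene windows, leaving out each library, exchanged groups and a replicate block. Peaks cannot show expression, and no genome was used, so site sequences are not given.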

Additional observations from a re-analysis of the deposited data

How the results depend on the processing

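With groups exchanged, as the genotype and treatment labels state, the control minus TBX5 KO difference was −226.5 sites and −268 kb, the control-only share 2.01%, the TBX5 KO-only sites 125, the genes with more sites in control 1 and the pathway share 1.46%. At −log10 q of at least 5 the control-only share was 30.3% (27.0% over all gene regions) and the pathway share 28.9%. In lists of equal length the control-only share was 17.5% and the pathway share 14.2%, beside 13.4% over all gene regions. There were 22 TBX5 KO-only sites, and the TBX5 KO-only share over all gene regions was 5.66%. The genes with more sites in control were 15 of 62 (24.2%, beside 14.8% of all genes). With summits within 250 bp there were 32 TBX5 KO-only sites, and the pathway share was 28.2%. Leaving out 1 library gave control-only shares of 32.1% to 40.8%, 11 to 47 TBX5 KO-only sites, pathway shares of 29.6% to 41.4%, 7 to 14 lower and 12 to 23 higher centred sites. A pattern over fewer libraries is met more often. Without the 5 leading genes the share was 14.8%, and over sites in the region of 1 gene it was 30.2% (26.2% over all gene regions). With a replicate block, the share of control sites not called in the same-numbered TBX5 KO library was 51.0% in pair 1 and 41.4% in pair 2, beside 51.9% and 41.7% over all gene regions, and the sign-flip test over pairs gave an exact p of 0.5. The block gave 34 genes with more sites in control and, in limma, 200 lower sites scaled to background, 15 lower and 40 higher centred. Counts given here without the share over all genes or sites are not a result about the axon guidance genes. Over 33 named genes, 258 of 396 control-only counts under alternatives were within 1.5 times the main count and 138 were not. Depth per library is not known from the lists, and sites near the call threshold limit all counts.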
